A study of Mus musculus with 5 samples.

Results

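The integrated stress response (ISR) was followed in neonatal mouse hearts through 10 genes, the transcription factors Atf4, Atf5 and Ddit3, the feedback regulator Trib3, the amino acid and one-carbon enzymes Asns, Psat1, Phgdh and Mthfd2, and the stress outputs Gdf15 and Chac1. They were taken by name, as ATF4, a related factor and genes known as targets or effectors of the response, from the 49671 genes of the deposited table. All 10 passed the filter on low counts, at least 10 counts in at least 2 pools, which left 14880 genes for testing. The hearts came from mice at postnatal day 2 of strain C57BL6/J. Charme KO mice carry a PolyA signal inserted into the locus of the long noncoding RNA Charme and Charme WT mice are their littermates with the intact locus. The samples are pools of hearts, 3 Charme WT (wild-type) pools with 9 hearts each and 2 Charme KO (knockout) pools with 3 hearts each. Pool size and genotype therefore cannot be told apart, and since it is not stated whether pools came from separate litters, p-values measure only the spread between these pools.

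In the ISR, kinases that sense amino acid shortage, endoplasmic reticulum stress, haem shortage or double-stranded RNA phosphorylate the translation initiation factor eIF2. General translation then falls while the mRNA of ATF4 is translated more, and ATF4, usually paired with another basic leucine zipper protein, activates genes of amino acid synthesis, transport and tRNA charging. Because ATF4 is controlled largely at the level of translation, the amount of its mRNA is not a measure of its activity, and none of the data here measure eIF2 phosphorylation or protein. In heart and skeletal muscle, the same set of genes is known to respond to defects of mitochondrial function.

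ATF4 dimers bind a composite C/EBP-ATF element with the core TGATGNAA, which reads TTNCATCA on the opposite strand. It was searched on both strands from 250 bases before to 50 bases after the RefSeq transcription start (GRCm38.p6). All 10 genes matched a RefSeq promoter, with 13 promoters among them, and 3 of the 10 genes (30%) held a match, against 1219 of 27025 genes (4.51%) and 1304 of 32851 promoters (3.97%) overall. Since the 10 were chosen as ATF4, a related factor and known targets or effectors, the difference in share cannot be separated from that choice. The matches lay 23 bases before the RefSeq start of Asns, 193 bases before that of Chac1 and 15 bases after that of Trib3. The last one is thus in transcribed sequence by RefSeq, but it lies upstream of the GENCODE span of Trib3. The Asns match, upstream by RefSeq, lies inside the GENCODE span of Asns. The 250 bases before the start are shown for Asns, Psat1 and Phgdh, the 3 genes that rose in knockout hearts, and for Chac1 and Trib3 the 30 bases around the match. The intervals for the first 3 are chr6:7693210-7693459, chr19:15925060-15925309 (the first of 2 starts listed for Psat1, inside the longer GENCODE span of the gene) and chr3:98339970-98340219, all on the minus strand, and those of the short stretches are chr2:119351038-119351067 on the plus strand for Chac1 and chr2:152344028-152344057 on the minus strand for Trib3. The Asns and Phgdh intervals also reach partly into the GENCODE spans of their genes. All stretches are written 5′ to 3′ along the gene. Capitals mark the match, and the Psat1 and Phgdh stretches have none.
Asns: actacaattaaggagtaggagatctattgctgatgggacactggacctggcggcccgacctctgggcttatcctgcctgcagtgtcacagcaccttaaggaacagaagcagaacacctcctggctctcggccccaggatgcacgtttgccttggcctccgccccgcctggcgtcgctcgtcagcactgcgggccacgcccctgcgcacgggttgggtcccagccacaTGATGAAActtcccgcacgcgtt
Psat1: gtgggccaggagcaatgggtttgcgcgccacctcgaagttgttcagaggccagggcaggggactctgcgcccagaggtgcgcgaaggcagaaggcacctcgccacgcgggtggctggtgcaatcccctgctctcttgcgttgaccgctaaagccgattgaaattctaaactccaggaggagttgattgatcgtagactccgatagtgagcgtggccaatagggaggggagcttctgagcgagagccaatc
Phgdh: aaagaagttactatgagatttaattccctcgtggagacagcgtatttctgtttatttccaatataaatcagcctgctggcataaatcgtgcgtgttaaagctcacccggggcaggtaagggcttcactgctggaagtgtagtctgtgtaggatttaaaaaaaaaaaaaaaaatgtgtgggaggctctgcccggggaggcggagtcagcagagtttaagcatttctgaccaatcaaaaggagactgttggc
Chac1: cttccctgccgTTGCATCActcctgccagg
Trib3: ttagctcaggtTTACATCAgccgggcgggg
A match is a description of the letters, and no binding was measured here.

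Between 16721055 and 21646378 fragments were counted on genes in each pool. Charme itself, as a check of the labels, was counted 810, 183 and 276 times in wild-type pools 1 to 3 and 57 and 79 times in knockout pools 1 and 2. As CPM, counts scaled to library size with TMM normalization, these were 39.3, 10.4 and 13.96 against 4.04 and 3.54, so both knockout pools lay below every wild-type pool (log2 fold change -2.49, SE 0.549, adjusted p = 0.0763 by edgeR's quasi-likelihood test). Without wild-type pool 1, the highest, the log2 fold change of Charme was -1.68 and did not pass (adjusted p = 0.153). The hearts held their own defining transcripts, since 8 cardiomyocyte genes summed to between 39788 and 50934 CPM in wild-type pools and to 41110 and 42266 CPM in knockout pools 1 and 2. As a share of all counts they made up 4.33% to 5.24% in wild-type pools and 3.47% and 4.36% in knockout pools 1 and 2. Single genes of this list went both ways, with 4 log2 fold changes positive and 4 negative. The 2 knockout pools stood apart from each other in transcripts of other tissues. A list of 12 salivary gland genes, 6 of which had no count in any wild-type pool, summed to between 0.566 and 3.89 CPM in wild-type pools, 349 CPM in knockout pool 1 and 25663 CPM in knockout pool 2, where they made up 2.64% of all counts. For 7 adipose genes the sums were 28.4 to 40.9, 69.7 and 1050 CPM, and for 8 skeletal muscle genes 5.15 to 6.28, 17.3 and 48.4 CPM. The order was turned for 9 proliferation genes, with 424 to 618 CPM in wild-type pools, 1816 CPM in knockout pool 1 and 1055 CPM in knockout pool 2, and for 8 erythroid genes, with 870 to 1254, 2284 and 1619 CPM. Sums over macrophage, endothelial and fibroblast genes were 95.5 to 154, 822 to 1015 and 3954 to 4750 CPM in wild-type pools, 123, 790 and 4617 CPM in knockout pool 1, and 200.5, 842 and 5709 CPM in knockout pool 2. Hepatocyte and thymus genes stayed at or under 7.70 and 3.03 CPM in all pools. In whole hearts, fewer cells of a type and less RNA per cell cannot be told apart.

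The levels of the 10 genes spanned a wide range in wild-type hearts, which can be read only per length of transcript (FPKM, fragments scaled to exon length and library size). Atf4 was the most abundant at 40.0 ± 1.16 FPKM (SD, n = 3), followed by Atf5 at 19.7 ± 0.720. Ddit3 at 6.004 ± 1.04, Psat1 at 5.45 ± 1.75 and Phgdh at 4.07 ± 1.04 FPKM came next, and neighbours among these did not differ beyond their spread. Asns at 1.87 ± 0.211, Mthfd2 at 1.57 ± 0.881, Trib3 at 1.08 ± 0.228 and Gdf15 at 0.707 ± 0.184 FPKM formed a lower series whose neighbours also overlapped. Chac1 was the lowest of the 10, at 0.219 ± 0.102 FPKM. In knockout hearts (n = 2) the order was changed in the middle, where Psat1 at 15.7 ± 6.27, Phgdh at 10.05 ± 2.85 and Asns at 6.11 ± 3.44 FPKM stood above Ddit3 at 5.91 ± 1.57, although each of these neighbours overlapped within its SD. Atf4 at 55.6 ± 1.31 and Atf5 at 23.2 ± 12.1 FPKM were still the first 2 of the 10, with Atf5 overlapping Psat1 within its SD, and Gdf15 at 0.419 ± 0.160 and Chac1 at 0.262 ± 0.249 FPKM the last.

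**Figure D1:**
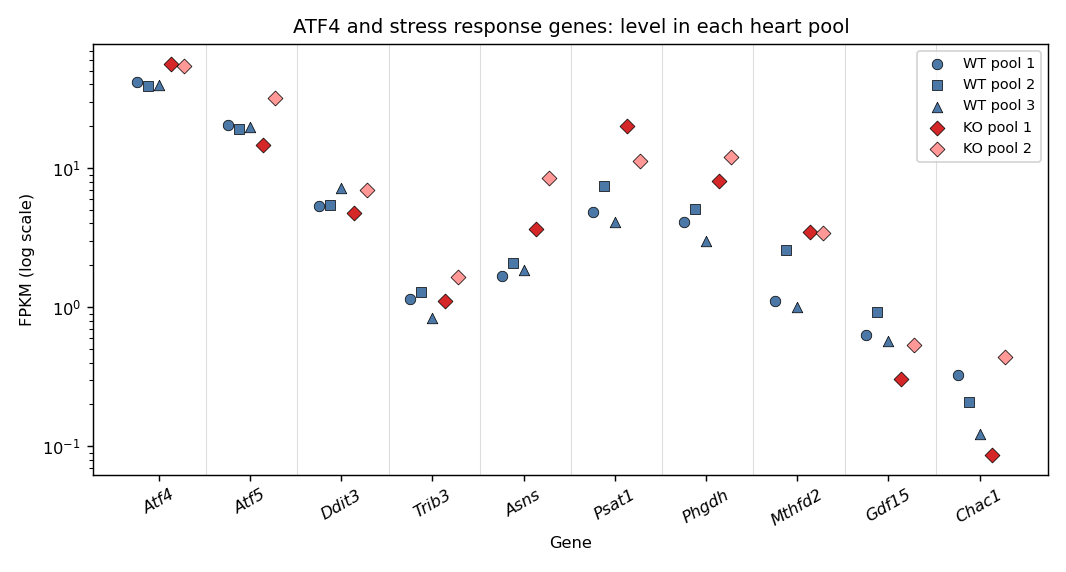
Level of each of the 10 genes in each heart pool, in FPKM on a log axis, with blue symbols for the 3 wild-type pools and red diamonds for the 2 knockout pools. Both knockout pools lie above every wild-type pool for Atf4, Asns, Psat1, Phgdh and Mthfd2 and below every one for Gdf15, and the knockout pools fall on both sides of the wild-type pools for Atf5 and Chac1.

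Asns, Psat1 and Phgdh rose in knockout hearts by 3.30-, 2.89- and 2.48-fold, and the other 7 genes did not pass the test. Calls needed an adjusted p under 0.1 in the quasi-likelihood test of edgeR, adjusted by Benjamini-Hochberg over all 14880 genes, and a mean of at least 1 FPKM in at least 1 genotype. With these criteria 3 of the 10 genes were called higher and 0 lower, where 1.53% of all genes tested were called higher and 0.524% lower. At an unadjusted p under 0.05, 5 of the 10 were higher (Asns, Psat1, Phgdh, Mthfd2 and Atf4) and 0 lower, against 10.6% and 8.01% of all genes. Both knockout pools lay above every wild-type pool for these same 5 genes, against 17.8% of all genes, and below every wild-type pool for 1 (Gdf15), against 18.2%. The likelihood ratio test and DESeq2 each called 4 of the 10 higher, adding Mthfd2, and 0 lower, where they called 3.92% and 4.33% of all genes higher and 2.35% and 3.21% lower. At an adjusted p under 0.05 the quasi-likelihood test called 0 of the 10, and 0.746% of all genes. Without knockout pool 2 it called 5 of the 10, in a fit that called 31.7% of all genes. Without knockout pool 1 or wild-type pool 2 it called 4, where 4.33% and 1.27% of all genes were called. Without wild-type pool 1 or 3 it called 0, where 0.0137% and 0% of all genes were called. The median log2 fold change of the 10 genes was 0.44, and that of all genes tested was 0.02.

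The amino acid enzymes are described first, since all of the called genes are among them. Asns encodes asparagine synthetase, which makes asparagine from aspartate with glutamine as the nitrogen donor (chr6, 7675169 to 7693254, minus strand). It had 94, 101 and 100 counts in wild-type pools 1 to 3, and 142 and 521 counts in knockout pools 1 and 2. On the CPM scale these were 4.57, 5.72 and 5.06 against 10.1 and 23.4. The wild-type pools lay close together and both knockout pools were above them, but knockout pool 2 was 2.32-fold above pool 1, a larger difference between these pools than in 91.7% of the genes tested. The log2 fold change was 1.72 (SE 0.342, 95% interval 0.96 to 2.48, adjusted p = 0.0567). The log2 difference from the wild-type mean was 0.98 for knockout pool 1 and 2.19 for knockout pool 2. Salivary gland and adipose transcripts were also higher in knockout pool 2. Proliferation and erythroid sums lay above every wild-type pool in both knockout pools. The part of all these transcripts in the result was not tested. Without knockout pool 2 the log2 fold change of Asns was 0.97 and without knockout pool 1 it was 2.20, in fits that each leave 1 knockout sample. The call was lost without wild-type pool 1, at a log2 fold change of 1.64 (adjusted p = 0.204), and without wild-type pool 3, at 1.71 (adjusted p = 0.304). Without the last of these, wild-type pool 3, 0 of all genes tested passed the adjusted threshold with edgeR, while 1315 had an unadjusted p under 0.05.

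Psat1 and Phgdh encode successive enzymes of serine synthesis, phosphoserine aminotransferase and the 3-phosphoglycerate dehydrogenase that commits glycolytic carbon to the pathway. Psat1 (chr19, 15904678 to 15947337, minus strand) had 426, 557 and 342 counts in wild-type pools and 1211 and 1072 counts in knockout pools, or 20.7, 31.5 and 17.3 CPM against 85.8 and 48.05. Here knockout pool 1 was the highest, with a log2 difference of 1.93 from the wild-type mean against 1.098 in pool 2. The log2 fold change was 1.53 (SE 0.300, 95% interval 0.86 to 2.20, adjusted p = 0.0555). Proliferation and erythroid transcripts were also highest in knockout pool 1, and their part in the result was not tested. Phgdh (chr3, 98313170 to 98339990, minus strand) had 210, 224 and 148 counts in wild-type pools and 282 and 669 counts in knockout pools, or 10.2, 12.7 and 7.49 CPM against 19.98 and 29.99. The groups did not overlap, and the log2 fold change was 1.31 (SE 0.277, 95% interval 0.69 to 1.93, adjusted p = 0.0689). Phgdh was higher in knockout pool 2, as the salivary gland and adipose transcripts were. Their part, and that of the proliferation and erythroid transcripts with sums raised in both knockout pools, was not tested. Of the single pools, leaving out wild-type pool 1 ended both calls (log2 fold changes 1.46 and 1.32, adjusted p = 0.204 and 0.213) and so did leaving out wild-type pool 3 (1.36 and 1.13, adjusted p = 0.303 and 0.359). With 1 knockout pool left out the log2 fold changes were 1.06 for Psat1 and 1.57 for Phgdh without pool 1, and 1.89 and 0.98 without pool 2. Each of these fits leaves 1 knockout sample, which is assumed to vary like the wild-type pools.

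Mthfd2 encodes a mitochondrial enzyme of folate one-carbon metabolism, active in embryonic and proliferating cells (chr6, 83305691 to 83325908, minus strand). Its levels were 3.885, 9.0 and 3.49 CPM in wild-type pools and 12.04 and 12.01 CPM in knockout pools, from 80, 159, 69, 170 and 268 counts. The knockout pools were alike and above all wild-type pools, of which pool 2 stood apart from the other two. The log2 fold change was 1.15 (SE 0.383, 95% interval 0.29 to 2.002), which did not pass the adjustment (adjusted p = 0.180). It passed without wild-type pool 2, at a log2 fold change of 1.70 (adjusted p = 0.0618). Without knockout pool 2 the log2 fold change was 1.15, in a fit that leaves 1 knockout sample. The likelihood ratio test gave an adjusted p of 0.0926 and DESeq2 one of 0.069. Gm43890, within Mthfd2 on the same strand, shares 0 exon bases with it.

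**Figure D2:**
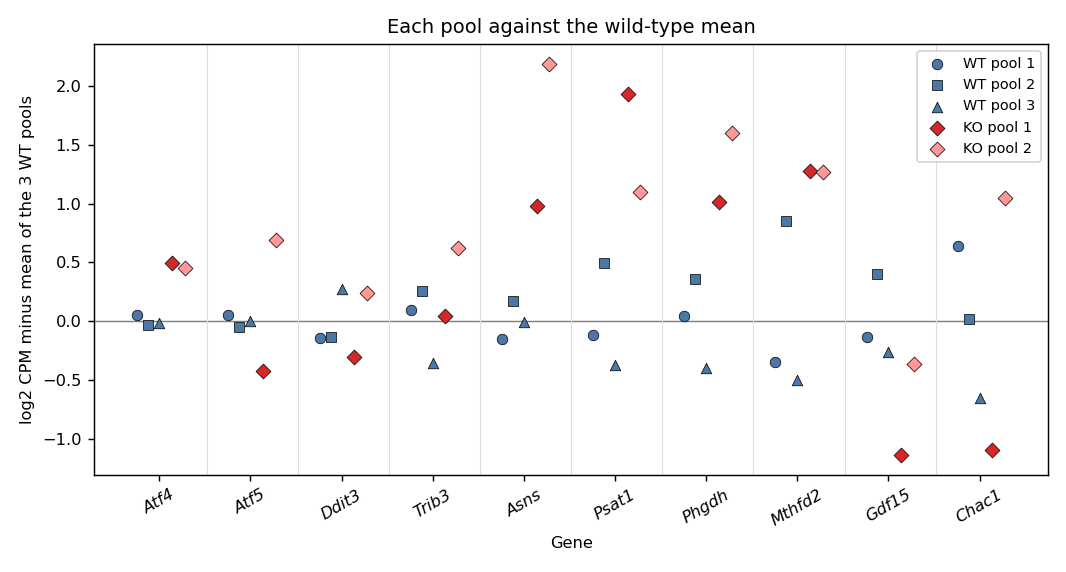
Log2 CPM of each of the 10 genes in each pool, minus the mean of the 3 wild-type pools for that gene, with blue symbols for wild-type and red diamonds for knockout pools. Knockout pool 2 stands above pool 1 for Asns (2.19 against 0.98) and Phgdh, and below it for Psat1 (1.098 against 1.93), while the pools coincide for Atf4 and Mthfd2.

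None of the 3 transcription factors passed the test. Atf4, the effector of the ISR (chr15, 80255184 to 80257541, plus strand), had 97.5, 92.4 and 93.3 CPM in wild-type pools and 133 and 129 CPM in knockout pools. The pools of each genotype lay within a few CPM of each other and the genotypes did not overlap, with knockout pools 1 and 2 closer together than in all but 5.62% of the genes tested. The 1.39-fold difference (log2 fold change 0.47, SE 0.160, 95% interval 0.12 to 0.83) did not pass the adjustment (adjusted p = 0.185). It was called only without knockout pool 2 (log2 fold change 0.49), in a fit that leaves 1 knockout sample. Leaving out any other single pool, or changing any other setting, did not bring the adjusted p under 0.1.

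Atf5, a paralogue of ATF4 that is likewise under translational control and takes part in the mitochondrial stress response, gave opposite readings in the knockout pools (chr7, 44812256 to 44816658, minus strand). It had 40.8, 37.98 and 39.25 CPM in wild-type pools, 29.3 CPM in knockout pool 1 and 63.4 CPM in knockout pool 2. Knockout pool 1 thus lay below every wild-type pool and knockout pool 2 above every one, and the difference between them, 2.17-fold, was larger than in 89.9% of the genes tested. The log2 fold change of 0.24 (SE 0.282, 95% interval -0.39 to 0.87, adjusted p = 0.663) averages over these. Without knockout pool 1 it was 0.69 and without knockout pool 2 it was -0.44, in fits that each leave 1 knockout sample. The 63.4 CPM stood in the pool with the salivary gland and adipose transcripts, and their part was not tested. Exons of Atf5 overlap those of Nup62 and Il4i1 on the other strand by 82 bases each, and the counts were made by strand.

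Ddit3, which encodes the pro-apoptotic factor CHOP (chr10, 127290774 to 127296288, plus strand), had 9.23, 9.28 and 12.3 CPM in wild-type pools and 8.22 and 12.01 CPM in knockout pools. The groups overlapped and the log2 fold change was -0.02 (SE 0.271, 95% interval -0.62 to 0.59, adjusted p = 0.982), an interval that holds changes in either direction. Exons of Ddit3 overlap those of Mars by 68 bases and of Gm4189 by 13 bases, both on the other strand. Another Ddit3 entry on the same strand, sharing 105 exon bases, is not among the counted genes. Trib3, a pseudokinase induced by ATF4 and CHOP that restrains their activity (chr2, 152337422 to 152344032, minus strand), had 2.43, 2.72 and 1.77 CPM in wild-type pools and 2.34 and 3.50 CPM in knockout pools. The pools overlapped, and the log2 fold change was 0.37 (SE 0.354, 95% interval -0.42 to 1.16, adjusted p = 0.592).

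The stress outputs Gdf15 and Chac1 were close to the limit of the counts. Gdf15 encodes a secreted factor that acts on a receptor in the hindbrain and is released by stressed heart and muscle (chr8, 70629393 to 70632456, minus strand). It had 24, 30 and 21 counts in wild-type pools and 8 and 22 counts in knockout pools, or 1.17, 1.70 and 1.06 CPM against 0.567 and 0.986. It was the only one of the 10 with both knockout pools below every wild-type pool, at a log2 fold change of -0.68 (SE 0.467, 95% interval -1.72 to 0.36, adjusted p = 0.448). The exact Poisson 95% intervals of the knockout counts were 3.45 to 15.8 and 13.8 to 33.3. Chac1 encodes an enzyme that degrades glutathione (chr2, 119351229 to 119354381, plus strand). It had 11, 6 and 4 counts in wild-type pools and 2 and 16 counts in knockout pools, so that knockout pool 1 was the lowest and knockout pool 2 the highest of all pools. The exact Poisson 95% intervals of these last counts were 0.242 to 7.22 and 9.15 to 25.98, and the fitted log2 fold change was 0.40 (SE 0.722, 95% interval -1.21 to 2.02, adjusted p = 0.786). At this depth no difference between genotypes was detectable for Gdf15 or Chac1. Reads carried no molecular identifiers, so the Poisson intervals cover counting error only.

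**Figure D3:**
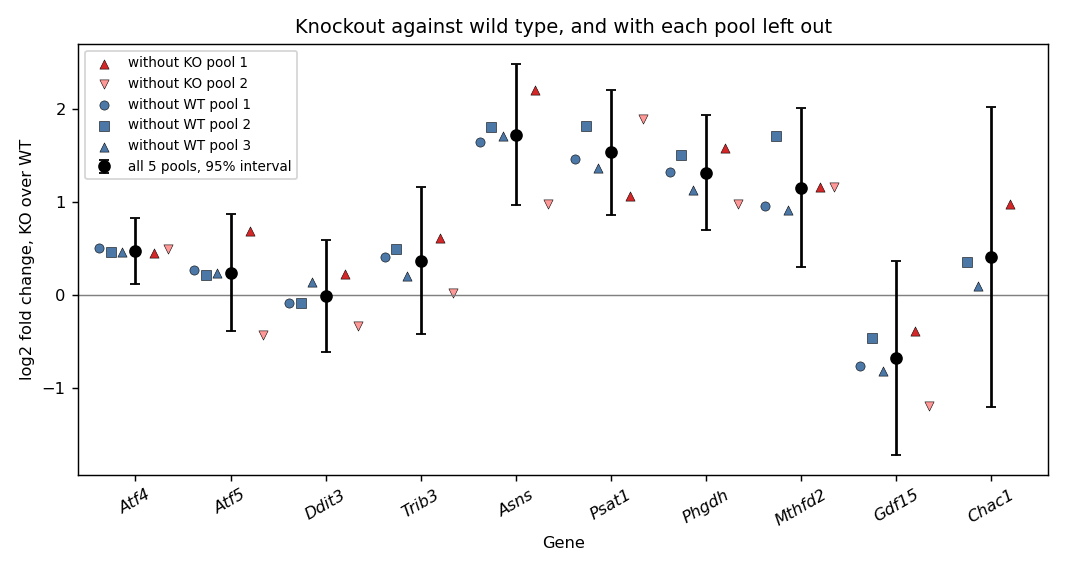
Log2 fold change of Charme KO over Charme WT for each of the 10 genes, with black points and bars for the estimate and 95% interval from all 5 pools and coloured symbols for fits with 1 pool left out. The intervals of Atf4, Asns, Psat1, Phgdh and Mthfd2 lie above 0, the fits without a knockout pool spread most for Atf5 (from -0.44 to 0.69) and Asns (from 0.97 to 2.20), and Chac1 lacks the fits in which it did not pass the count filter.

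Of the 10 genes, 7 were higher in knockout pool 2 than in pool 1, while 7521 of all 14880 genes tested were. The median log2 difference between these pools was 0.58 over the 10 genes and 0.01 over all genes. Chac1 and Asns had the largest differences (log2 2.14 and 1.21), and Mthfd2 and Atf4 the smallest (0.00 and -0.05). These are descriptions of 2 pools, with no test.

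The rest of the pathway was read from 9 further lists with 115 genes, of which 110 passed the filter and 0 were called in either direction with edgeR's quasi-likelihood test. At an unadjusted p under 0.05, 20 of the 110 (18.2%) were higher and 7 (6.36%) lower, against the 10.6% and 8.01% of all genes given above. Both knockout pools lay above every wild-type pool for 25 of them and below for 15, against the 17.8% and 18.2% of all genes. The median log2 fold change of the 110 was 0.14. The likelihood ratio test called 7 of them higher and 3 lower, where it called 3.92% of all genes higher and 2.35% lower. DESeq2 called 9 of them higher and 5 lower, where it called 4.33% and 3.21% of all genes. Without knockout pool 2 the quasi-likelihood test called 39 (35.5%), near the 31.7% of all genes called in that fit, and without knockout pool 1 it called 6 (5.45%), near the 4.33% of all genes. Fgf21, a hormone that stressed muscle releases, had 0 counts in every pool, and Cth, Cbs, Slc7a11 and Slc7a3 were also too low to test, with at most 13, 15, 8 and 4 counts in a pool.

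The eIF2 kinases, where the response starts, were 4 genes with log2 fold changes between -0.09 and 0.41. Eif2ak2, the double-stranded RNA sensor PKR, had 12.9, 14.04 and 15.1 CPM in wild-type pools and 19.4 and 17.9 CPM in knockout pools (log2 fold change 0.41, adjusted p = 0.320). Eif2ak1, the haem-regulated kinase HRI, had 37.3, 40.9 and 34.8 CPM against 42.9 and 46.8 (0.25, adjusted p = 0.461). For both, the knockout pools were above all wild-type pools by a margin that did not pass the test. Eif2ak3, the endoplasmic reticulum kinase PERK, had 11.6, 15.9 and 16.03 CPM against 11.2 and 22.8 (0.24, adjusted p = 0.695), and Eif2ak4, the amino acid sensor GCN2, had 17.4, 15.6 and 16.95 CPM against 17.4 and 13.99 (-0.09, adjusted p = 0.850). A list of 12 genes held eIF2, its exchange factor eIF2B, its phosphatases and related factors. Of these, 3 (25%) were higher at an unadjusted p under 0.05 and 0 lower, against 10.6% and 8.01% of all genes. Eif2s2, the beta subunit of eIF2, had 132, 105 and 101 CPM in wild-type pools and 224 and 140 CPM in knockout pools (log2 fold change 0.69, adjusted p = 0.175), and DESeq2 called Eif2s1 and Eif2s2 higher. Eif2b5, the catalytic subunit of eIF2B, had 71.5, 76.9 and 68.9 CPM against 64.3 and 69.7 (-0.11, adjusted p = 0.737).

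A list of 14 genes held serine, proline and one-carbon enzymes other than those above, together with the aminotransferases Got1 and Gpt2. Of the 14, 12 (85.7%) had a positive log2 fold change, against 51.8% of all genes. At an unadjusted p under 0.05, 4 (28.6%) were higher and 1 (7.14%) lower, against 10.6% and 8.01% of all genes. Their median log2 fold change was 0.29. The quasi-likelihood test called 0 of them, while the likelihood ratio test called Pycr1 and Tyms higher, and DESeq2 called these higher and Gpt2 lower. Pycr1, which completes proline synthesis in mitochondria, had 5.24, 5.77 and 2.93 CPM in wild-type pools and 8.15 and 15.8 CPM in knockout pools (log2 fold change 1.38, SE 0.364, adjusted p = 0.121). Its groups did not overlap, and knockout pool 2 was the higher one, as for Asns and Phgdh. Got1, the cytosolic aspartate aminotransferase, had 276, 394 and 268 CPM against 324 and 293 (-0.02, adjusted p = 0.969). Of 20 cytosolic aminoacyl-tRNA synthetases, which charge tRNAs with their amino acids, 5 (25%) were higher and 0 lower at an unadjusted p under 0.05. The shares of all genes were 10.6% and 8.01%. Both knockout pools lay above all wild-type pools for 7 of the 20 and below for 0, against 17.8% and 18.2% of all genes. Their median log2 fold change was 0.15. The quasi-likelihood test called 0 of them, and both other tests called Eprs, Farsb and Rars higher. Rars, the arginyl-tRNA synthetase, had 54.2, 52.3 and 48.5 CPM in wild-type pools and 95.99 and 66.97 CPM in knockout pools (0.66, adjusted p = 0.152), with knockout pool 1 higher. Gars, the glycyl-tRNA synthetase, had 101, 131 and 85.6 CPM against 122 and 137 (0.29, adjusted p = 0.458). Of 9 amino acid transporters tested, 0 were lower at an unadjusted p under 0.05 and 1 (11.1%) was higher, near the 10.6% of all genes. This was the glutamine transporter Slc1a5, with 29.2, 32.7 and 27.9 CPM against 36.8 and 56.1 (0.64, adjusted p = 0.187). The more abundant Slc38a2, another neutral amino acid carrier, had 382, 336 and 344 CPM against 572 and 279 CPM and so lay on both sides of the wild-type pools (0.26, adjusted p = 0.615).

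**Figure D4:**
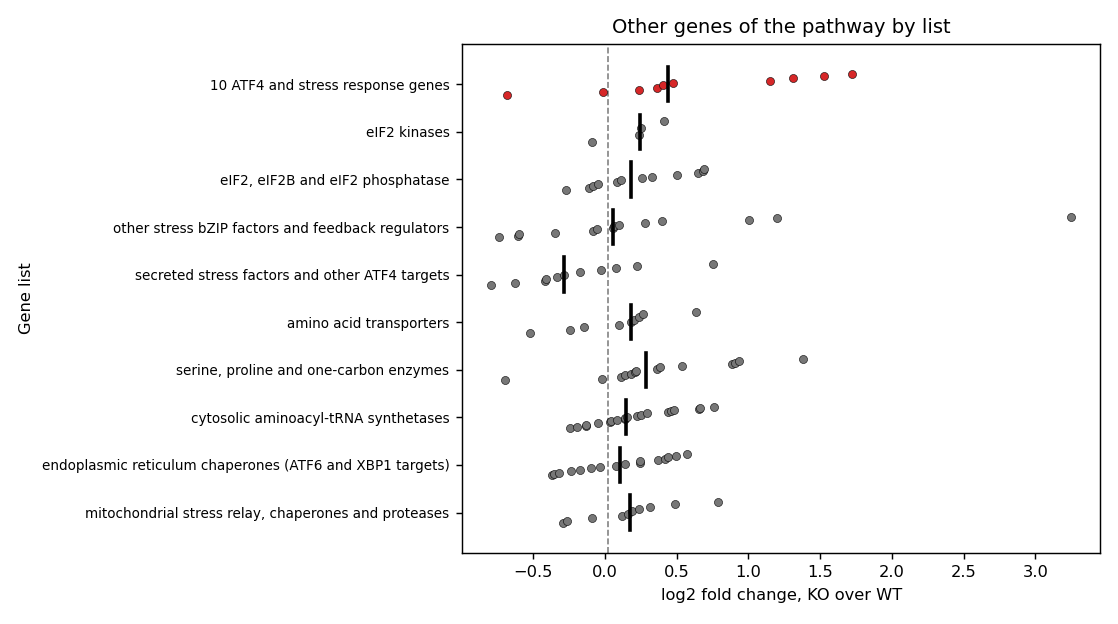
Log2 fold change of Charme KO over Charme WT for every tested gene of the 10 described genes (red) and of the 9 further lists (grey), with a black bar at each list's median and a dashed line at the median of all genes, 0.02. The medians of the further lists lie between -0.29 and 0.29, and the point at 3.25 is Nupr1.

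Other stress transcription factors and feedback regulators were 14 genes in all. Of these, 4 (28.6%) were higher and 3 (21.4%) lower at an unadjusted p under 0.05, against 10.6% and 8.01% of all genes. The quasi-likelihood test called 0 of them, while the likelihood ratio test called Nupr1 higher and Ddit4, Trib2 and Nfe2l1 lower, and DESeq2 called Cebpb higher and Ddit4, Trib2 and Nfe2l1 lower. Nupr1, a stress-inducible chromatin protein, had 3.45, 1.08 and 2.07 CPM in wild-type pools, 1.98 CPM in knockout pool 1 and 39.8 CPM in knockout pool 2 (log2 fold change 3.25, SE 0.868, adjusted p = 0.125). It stood out in the pool with 25663 CPM of salivary gland transcripts alone, and their part was not tested. Nfe2l1, which controls proteasome genes, had 330, 314 and 347 CPM against 204 and 233 (-0.60, adjusted p = 0.148). Secreted stress factors and other ATF4 targets were 11 tested genes with a median log2 fold change of -0.29, the lowest of the 9 lists. At an unadjusted p under 0.05, 0 were higher and 3 (27.3%) lower, against 10.6% and 8.01% of all genes. Txnip, an inhibitor of thioredoxin and of glucose uptake, had 1608, 1044 and 1248 CPM in wild-type pools and 839 and 842 CPM in knockout pools (-0.63, adjusted p = 0.215), and was called lower by DESeq2 (adjusted p = 0.0766).

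Chaperones of the endoplasmic reticulum, targets of the parallel ATF6 and XBP1 arms of the unfolded protein response, were 16 genes (median log2 fold change 0.11). Of these, 2 (12.5%) were higher at an unadjusted p under 0.05, near the 10.6% of all genes, and 0 were lower, against 8.01%. Dnajc3, a co-chaperone of BiP, had 42.3, 37.5 and 43.6 CPM in wild-type pools and 58.8 and 52.7 CPM in knockout pools (0.44, adjusted p = 0.238), and Calr, the lectin chaperone calreticulin, 306, 327 and 286 CPM against 280 and 240 (-0.24, adjusted p = 0.484). The mitochondrial stress relay, its chaperones and proteases were 10 genes with a median log2 fold change of 0.18. At an unadjusted p under 0.05, 0 were lower, against 8.01% of all genes, and 1 (10%) was higher, near the 10.6% of all genes. This was Hspe1, the mitochondrial co-chaperonin, with 93.05, 90.3 and 73.6 CPM in wild-type pools and 169.9 and 125.5 CPM in knockout pools (0.79, SE 0.195, adjusted p = 0.105), and the likelihood ratio test and DESeq2 called it higher (adjusted p = 0.0239 and 0.0178). Its partner Hspd1 had 375.5, 373.5 and 330 CPM against 522 and 374 (0.32, adjusted p = 0.408). Hspe1, Rars and Eif2s2 were all higher in knockout pool 1 than in pool 2, where the proliferation sum was 1816 against 1055 CPM, and the part of proliferating cells in these values was not tested.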

How the data were processed

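RNA of pooled hearts was sequenced as 150-nucleotide paired-end reads from a stranded poly(A) library preparation. The authors trimmed the reads, dropped those under 35 nucleotides, mapped them with STAR to GRCm38 and counted fragments per Ensembl 87 gene with STAR's strand-specific column. The deposited values are raw counts, and fragments that map to several genes or places were not counted. A deposited FPKM table was not used.

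Genes that reached 10 counts in 2 pools or more were normalized by TMM and tested in all 5 pools with edgeR 4.0.16's quasi-likelihood F test (R 4.3.3), with Benjamini-Hochberg adjustment over 14880 genes. The study's methods name the likelihood ratio test, an alternative here. Log2 fold changes compare Charme KO with Charme WT hearts, and each SE was taken from the fold change and its F statistic. FPKM used union exon lengths and positions of GENCODE M21, and 23 tested genes without a length were given 1000 bases. With 3 pools against 2 the smallest exact permutation p for a single value is 0.1. The tests were tried on simulated data.

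The 10 genes and all lists were chosen with earlier results of these data known. Named genes were the 10, the eIF2 kinases and, per further list, the gene with the lowest p and the most abundant one, the same gene in 1 list. Other genes, named where the likelihood ratio test or DESeq2 called them, where they overlap one of the 10 or where they were too low to test, were picked with their values in view. The alternatives tried were the likelihood ratio test, DESeq2 1.42.0, the legacy and robust forms, RLE and upper-quartile scaling, no count filter, filterByExpr, no FPKM minimum, a threshold of 0.05, a block for the replicate number, a correction for exon length and GC content (splines with 4 degrees of freedom), both together, the fit without mitochondrial and salivary gland genes, and each pool left out.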

Additional observations from a re-analysis of the deposited data

How the results depend on the processing

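With 5 pools, 2 of them knockout, single pools decided several calls. The number of the 10 genes called was 3, and 0 at an adjusted p under 0.05 or with the replicate block and the length and GC correction together. With 1 pool left out it ran from 0 to 5 (0 without wild-type pool 1 or 3, 5 without knockout pool 2). Of the 14 alternatives on all pools, Asns and Psat1 were called in 12 and Phgdh in 11. Leaving out a knockout pool leaves 1 sample in that arm, which is then assumed to vary like the wild-type pools. Of the 110 further genes, 0 were called, and 10 by the likelihood ratio test, 14 by DESeq2, 1 with upper-quartile scaling, 4 with the length and GC correction, 1 without mitochondrial and salivary gland genes and 0 to 39 with 1 pool left out. Over all genes 305 were called, and 933 by the likelihood ratio test, 1122 by DESeq2, 111 at an adjusted p under 0.05, 35 with the block and the correction, and 0 to 4607 with 1 pool left out (2 and 0 without wild-type pools 1 and 3, where edgeR's fits left 2190 and 1315 genes at an unadjusted p under 0.05, 187 without wild-type pool 2, 639 and 4607 without knockout pools 1 and 2). For Charme the log2 fold change of -2.49 missed the threshold in the robust form (-2.49, adjusted p = 0.120), at an adjusted p under 0.05 (-2.49) and with the block and the correction (-2.42), and ran from -2.82 to -1.68 with 1 pool left out, missing it without wild-type pool 1 (-1.68, adjusted p = 0.153) and wild-type pool 3 (-2.72, adjusted p = 0.275). The cause of these differences was not tested.

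The replicate numbers of the labels are not said to mark anything shared, and same-numbered pools deviated together only weakly (correlations 0.114 and 0.0576). With the replicate block 2 of the 10 genes and 210 of all genes were called, since Phgdh had a log2 fold change of 1.11 (adjusted p = 0.104). The sign turned for 3 genes that did not pass the test, with values of 0.019 for Ddit3 under upper-quartile scaling, 0.11 with the block, 0.13 without wild-type pool 3 and between -0.33 and 0.22 over the pools left out, of -0.00093 for Chac1 with the block, and of -0.44 for Atf5 without knockout pool 2, its range being -0.44 to 0.69. filterByExpr left out Chac1, as did the fits lacking wild-type pool 1 or knockout pool 2. The scalings moved the median of all genes by under 0.1 (log2).

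Alternative scalings for the levels in wild-type pools and for the differences between knockout pools were added after the data had been seen. Without mitochondrial and salivary gland genes in the library size, Atf4, Atf5 and Asns moved by more than 1 SD, to 46.2, 22.8 and 2.16 FPKM.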
